A study of Bos taurus with 30 samples.

Results

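Claudins, connexins and the other genes of tight junctions, gap junctions and desmosomes were examined in the embryonic disc (ED) and the extra-embryonic membranes (EEM) of bovine conceptuses at day 15. Members were taken from the gene count table by symbol. The symbols were those of the claudins (CLDN), connexins (GJA to GJE), pannexins (PANX) and MARVEL domain proteins (MARVELD), all that begin with DSC, DSG or DSP, and the TJP genes, OCLN, F11R and CGN. Of 35092 genes, 67 matched, and the 49 of these with 10 or more counts in at least 3 of the 30 libraries were described. They were 16 claudins, 14 connexins, 2 pannexins, 5 desmosome genes, 9 plaque, MARVEL and F11R genes, and 3 genes that shared only the letters of a symbol.

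All conceptuses were Holstein. In vitro produced (IVP) embryos came from slaughterhouse oocytes fertilized with semen of 1 bull, were cultured in medium free of serum, and were moved on day 7 into 2 recipient cows. In vivo (IVV) embryos came from 2 superovulated cows inseminated with the same bull, and both kinds were flushed at day 15. The libraries were 7 ED and 6 EEM of IVP embryos and 9 ED and 8 EEM of IVV embryos. Of 17 embryos, 13 gave both tissues (5 IVP and 8 IVV). Since each procedure used its own cows, the cow that carried an embryo and the procedure cannot be told apart.

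The library totals lay between 48713218 and 63037371 counts. Levels are given as CPM, the counts of a gene scaled to the size of its library. XIST, the non-coding RNA of the silenced X chromosome, was at or below 0.591 CPM in all 13 IVP libraries and above 10 CPM in 7 of 9 ED and 6 of 8 EEM libraries of IVV embryos, so this sex-linked signal moved with the procedure. The IVV embryos VE3 and VE5 were low in XIST in both tissues, and their values are given beside each member that differed between the procedures. All 6 tested genes of an epiblast marker list were higher in the ED than in the EEM. SOX2 and UTF1, of the same list, had no count in any library, so their rows say nothing about the tissues. Of 13 trophoblast markers, 5 were lower in the ED and none higher, and their summed level in the ED still reached 9615 to 57986 CPM, against 23450 to 62947 CPM in the EEM. The 6 genes of a maternal uterine epithelium list summed to 1.90 to 9.72 CPM over the 4 groups, of which OVGP1, the oviductal glycoprotein, gave 1.48 to 8.48 CPM. PGR reached 115 counts, MUC16 45 and ESR1 41. Of PAEP and SERPINA14, secreted by the uterine glands, SERPINA14 had at most 2 counts and PAEP none in any library. A row with no count anywhere cannot tell an absent RNA from a gene that was not counted. None of the list was called in any comparison by edgeR, with 1 gene at an unadjusted p under 0.05 between the tissues and 1 in the interaction.

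Tight junctions seal the space between epithelial cells. Claudins form their strands and set which ions pass, occludin and the MARVEL proteins sit within the strands, and the ZO proteins (such as TJP1 and TJP3) and cingulin (CGN) tie them to the cytoskeleton. Connexins build gap junctions, through which small molecules pass between neighbouring cells, and desmosomes anchor keratin filaments at the cell border. In the blastocyst and the elongating conceptus the trophectoderm is the outer epithelium that carries such a seal, and the disc contains an epithelial epiblast that is about to gastrulate.

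The most highly read members of the families, as named here, were present in every library of both tissues. CPM is not divided by transcript length, so these are shares of reads and not a ranking of transcripts. CLDN4, a claudin that tightens epithelia, ran from 928 to 2583 CPM (median 1823) in the ED of IVP embryos and from 640 to 2292 CPM (median 1324) in that of IVV embryos. In the EEM it ran from 1038 to 2104 CPM (median 1320.4) and from 703 to 3132 CPM (median 1317), respectively. The 4 groups overlapped throughout. DSP, desmoplakin, which links the desmosome to keratin, had medians of 539 CPM (range 376 to 1205) in ED of IVP, 430 CPM (207 to 592) in ED of IVV, 549 CPM (415 to 818) in EEM of IVP and 436 CPM (212 to 644) in EEM of IVV embryos. The groups overlapped, and DSP was called between the procedures in neither tissue (0.52, SE 0.20, adjusted p = 0.146 in the ED and 0.32, adjusted p = 0.652 in the EEM). Cingulin (CGN) had medians of 269, 189, 270 and 250 CPM in the same order, and PANX1, a channel that releases ATP, had medians of 78.9, 65.8, 77.6 and 61.6 CPM. The groups overlapped for both genes. Among connexins, GJA1 had the highest median in the ED and is described below.

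**Figure D1:**
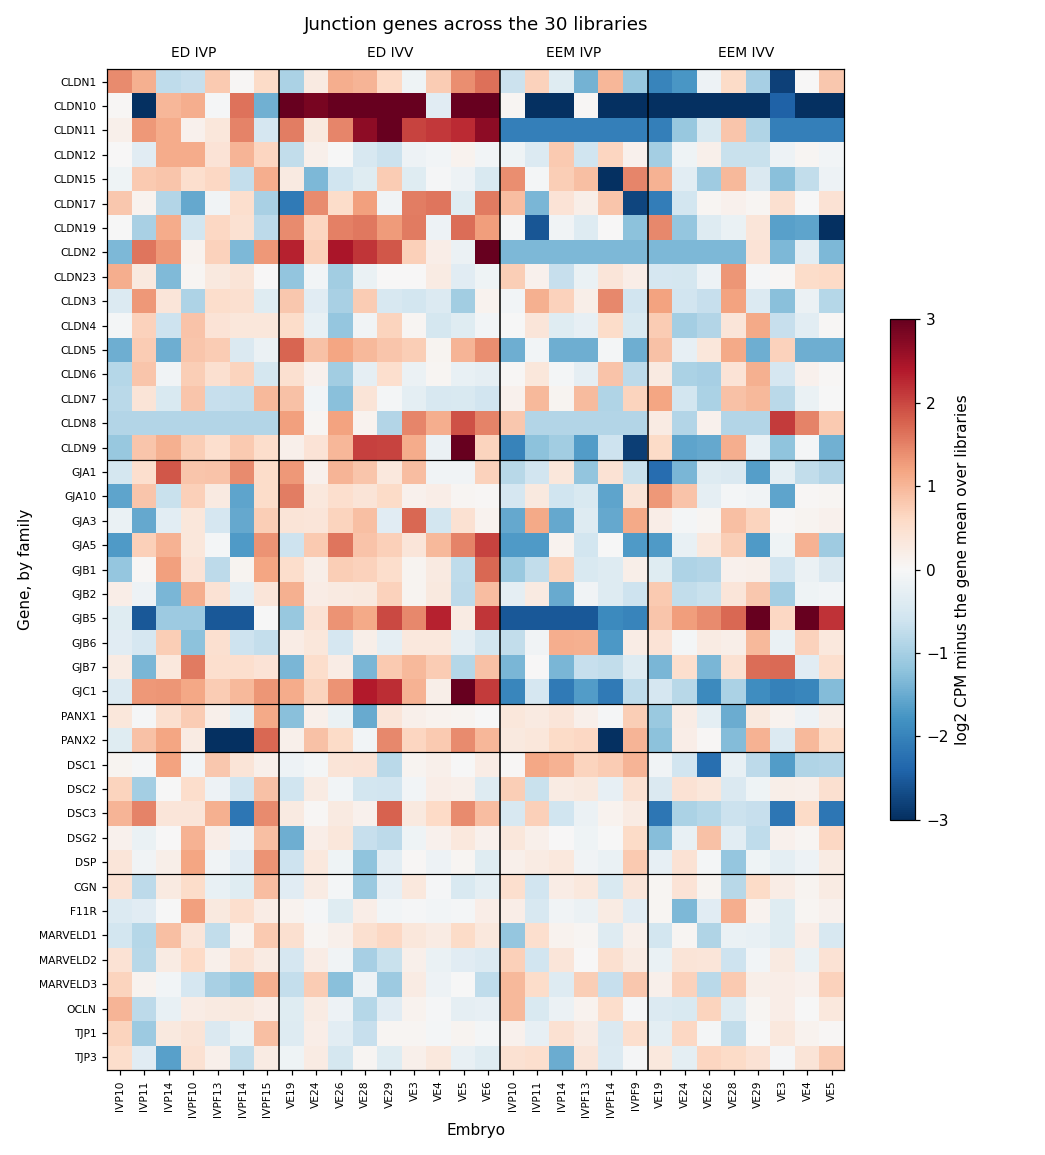
Each column is a library, grouped by tissue and procedure, and each row a junction gene reported here, ordered by family (claudins, connexins, pannexins, desmosome, plaque and MARVEL). Colour is log2 CPM (prior count 2) minus the mean of the gene over all 30 libraries, with values beyond 3 in either direction drawn at the end of the scale. CLDN10 and CLDN11 are red in the ED of IVV embryos, GJB5 is blue in the IVP libraries of both tissues, and the plaque genes at the bottom are pale throughout.

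The first comparison asked whether the in vitro procedure altered these genes in the ED. Of 42 members tested, 4 were lower in IVP embryos (CLDN10, CLDN11, GJB5 and DSCAML1) and 1 was higher (CLDN12), at an adjusted p under 0.05 from edgeR's quasi-likelihood test over all genes. Such genes are called DEG (differentially expressed genes). The model held 1 surrogate variable, a hidden factor estimated from the libraries. That was 11.9% of the members, against 6.34% of all genes tested (1.4% higher and 4.95% lower). Before adjustment 16 members had p under 0.05. The median log2 fold change (IVP against IVV) was -0.04 over the members and -0.01 over all genes. No member had groups that did not overlap, which 0.864% of all genes had.

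CLDN10, a claudin whose strands act as selective ion pores, held the strongest difference in the ED. It ran from 0 to 0.868 CPM (median 0.26, at most 45 counts) in the 7 IVP discs and from 0.194 to 10.7 CPM (median 7.77, up to 704 counts) in the 9 IVV discs. Apart from embryo VE4, which was at 0.194 CPM, every IVV disc was at or above 2.06 CPM and above all IVP discs. The log2 fold change was -4.29 (SE 0.69, adjusted p = 0.000411 from edgeR). VE3 and VE5, the IVV embryos low in XIST, were at 7.77 and 10.4 CPM.

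CLDN11, known from myelin and the Sertoli cell barrier, was read at 0.07 to 0.386 CPM (median 0.153, 4 to 20 counts) in IVP discs and at 0.149 to 1.23 CPM (median 0.618, 9 to 78 counts) in IVV discs. The IVV discs VE24 and VE26 lay within the range of the IVP discs, and the other 7 lay above it. The log2 fold change was -1.64 (SE 0.44, adjusted p = 0.0272 from edgeR). With the level of XIST as a further term the fold change was -1.67 (adjusted p = 0.127), with 2 surrogate variables -1.70 (0.0506), by limma voom -1.53 (0.0702), and in the embryos with both tissues -1.28 (0.168). The call held in 10 of 16 fits that left out 1 embryo and was lost without IVP10, IVPF10, IVPF13, IVPF15, VE29 or VE6 (log2 fold change -1.92 to -1.48 over the 16). The estimate thus stayed below 0 while the call rested on the model and the embryos used. VE3 and VE5 were at 0.577 and 0.675 CPM, above the IVP discs.

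CLDN12, a claudin linked to calcium passage, was the member that rose. Its level was 9.74 to 26.7 CPM (median 19.2) in IVP discs and 7.38 to 13.6 CPM (median 11.6) in IVV discs. The IVP discs IVP10 and IVP11 lay within the range of the IVV discs, and the other 5 lay above it. The log2 fold change was 0.71 (SE 0.19, adjusted p = 0.0274 from edgeR), and the call was lost with the level of XIST as a further term (0.66, adjusted p = 0.346) and with 2 surrogate variables (0.58, adjusted p = 0.0863). It held in 10 of 16 fits that left out 1 embryo and was lost without IVPF13, IVPF14, VE29, VE3, VE5 or VE6 (log2 fold change 0.56 to 0.93 over the 16). VE3 and VE5, at 11.05 and 13.1 CPM, fell within the IVP range but below the 5 IVP discs that exceeded all IVV discs.

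GJB5, a connexin of skin and trophoblast, was scarcely read in IVP discs, with 0 to 10 counts (0 to 0.175 CPM, median 0.0639) and none in 3 of the 7. IVV discs had 3 to 59 counts (0.0601 to 1.01 CPM, median 0.5). Of the IVV discs, VE19 alone lay within the range of the IVP discs. The log2 fold change was -3.63 (SE 0.65, adjusted p = 0.00132 from edgeR). VE3 and VE5 were at 0.544 and 0.215 CPM, above every IVP disc. At such counts each library gives a coarse value, and GJB5 passed the filter on low counts mainly through IVV discs.

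Markers of cell types in the disc also differed between the procedures. Of 12 markers of primitive streak and mesoderm, 9 were lower in IVP discs (75% called, against 6.34% of all genes), and their summed level was 46.0 to 109 CPM against 98.4 to 231 CPM in IVV discs. EOMES, of the streak, was at 1.87 to 10.03 CPM (median 5.58) in IVP and 2.97 to 57.3 CPM (median 16.6) in IVV discs. Of 6 tested epiblast markers 1 was lower, POU5F1, at 16.5 to 39.3 CPM (median 29.3) against 27.1 to 227 CPM (median 68.5), and NANOG was not called (-1.34, SE 0.41, adjusted p = 0.0517). All 6 had an estimate below 0, 3 with an unadjusted p under 0.05, and their median log2 fold change was -0.76 against -0.01 over all genes. Of 9 tested hypoblast markers 1 was higher, RSPO3 (1.07, SE 0.30, adjusted p = 0.0341), and none lower. Embryo VE4, the IVV disc low in CLDN10, was also the lowest of its group in EOMES (2.97 CPM) and in the epiblast marker NANOG (3.13 CPM). The part of these marker differences in the values of CLDN10, CLDN11 and GJB5 was not tested. In such pieces of tissue, fewer cells of a type and less RNA per cell cannot be told apart. Of 13 trophoblast markers none was called in either tissue by edgeR (0 in the ED and 1 in the EEM at an unadjusted p under 0.05), but 13 of 13 had an estimate above 0 in the ED and 11 of 13 in the EEM. Their median log2 fold change was 0.32 in the ED, against -0.01 over all genes, and 0.26 in the EEM, against 0.004. Their summed level was 9615 to 57986 CPM (median 27548) in IVP and 16614 to 28393 CPM (median 21685) in IVV discs, and its part in the values of CLDN12 and of the other members with estimates above 0 was not tested.

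The remaining disc members gave estimates on either side of 0. Of the other 11 tested claudins none was called, with log2 fold changes from -1.53 for CLDN2, a pore for cations, to 0.74 for CLDN15, a sodium pore of the gut. CLDN19, a partner in renal magnesium uptake, came nearest (-1.22, SE 0.41, adjusted p = 0.0829). It was at 0.135 to 0.687 CPM in IVP and 0.265 to 1.03 CPM in IVV discs. Of 10 connexins tested, 9 had an estimate under 0, but only GJB5 passed. GJC1, a connexin of the early heart and vessels, was at 1.67 to 5.65 CPM (median 5.07) and 2.53 to 18.1 CPM (median 5.7), respectively (-0.85, SE 0.37, adjusted p = 0.2).

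Desmosomes and the tight junction plaque gave no DEG in the disc by edgeR. All 4 tested desmosome genes had estimates above 0, of which DSP was the farthest (0.52, SE 0.20, adjusted p = 0.146). It was also the single desmosome gene with an unadjusted p under 0.05. The 9 plaque, MARVEL and F11R genes ran from -0.40 for MARVELD1 to 0.40 for MARVELD2, tricellulin, with 1 of 9 at an unadjusted p under 0.05. TJP1, the ZO protein that scaffolds claudins, differed by 0.09 with a 95% interval of -0.28 to 0.47. OCLN, occludin, differed by 0.34 with an interval of -0.07 to 0.74. PANX1 (0.44, SE 0.21, adjusted p = 0.256) and PANX2 (-0.54, SE 0.60, adjusted p = 0.735) were not called. DESeq2 and limma voom called none of the desmosome, pannexin or plaque genes in the disc either.

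**Figure D2:**
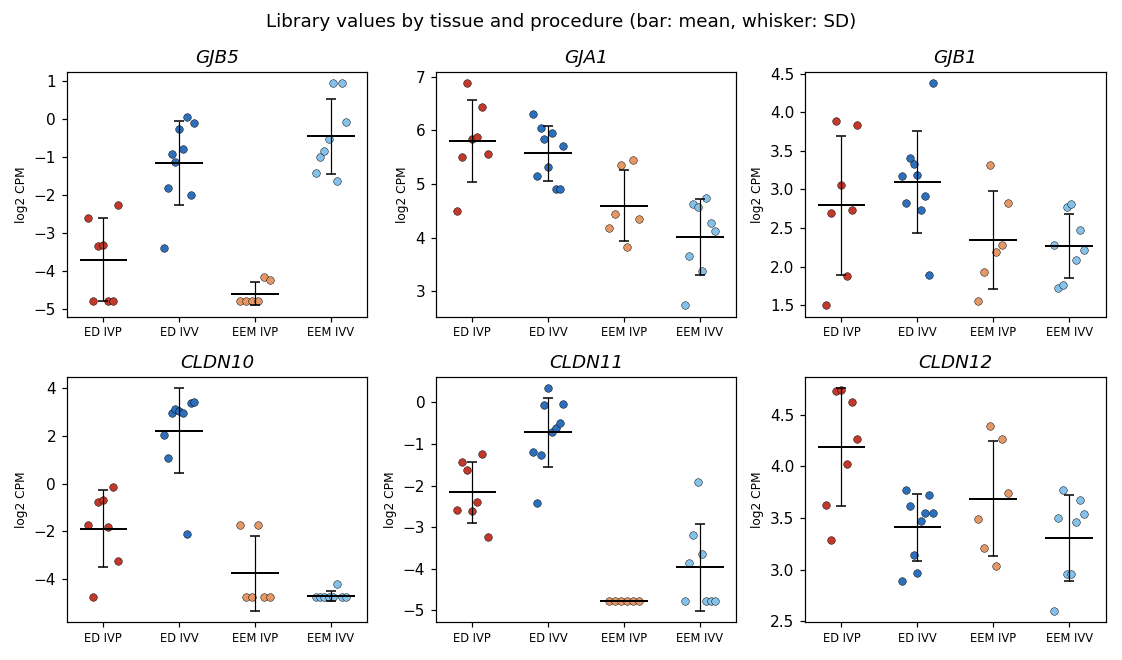
Log2 CPM (prior count 2) of 6 junction genes in each library, in ED and EEM of IVP and IVV embryos, with the mean as a bar and the SD as whiskers. GJB5 separates the procedures completely in the EEM. GJA1 and GJB1, at higher levels, overlap between the procedures in both tissues. In the lower row CLDN10 is high in all IVV discs but 1, CLDN11 is read mainly in discs, and CLDN12 is higher in IVP discs.

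In the EEM, the same comparison called a single member, GJB5, of 34 tested. That was 2.94% of the members against 3.81% of all genes (2.29% higher and 1.52% lower), and 5 members had an unadjusted p under 0.05. DESeq2 and limma voom likewise called GJB5 alone. The median log2 fold change was 0.14 over the members and 0.004 over all genes. In the same libraries 2 of 10 tested hypoblast markers were called (20%), RSPO3 as higher in IVP membranes (1.64, SE 0.33, adjusted p = 0.00342) and TTR as lower, with at most 1 count in the IVP membranes and 0 to 4.91 CPM (median 1.78) in the IVV membranes. The summed level of the hypoblast list was 1561 to 2942 CPM in IVP and 804 to 2425 CPM in IVV membranes. Of 5 epiblast markers LIN28B was higher (1.10, SE 0.27, adjusted p = 0.0159), and of 8 streak and mesoderm markers 1 was higher and 1 lower. The part of these markers in the values of GJB5 was not tested.

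GJB5 was at the floor of detection in the membranes of IVP embryos. Of 6 IVP libraries, 4 had no count and 2 had 1 count each (at most 0.02 CPM), whereas the 8 IVV libraries had 16 to 100 counts (0.288 to 1.91 CPM, median 0.597). The groups did not overlap, which held for 0.904% of all genes tested. With 3 counts per library as the floor, the level was at least 14.9-fold lower in IVP embryos. The fitted log2 fold change was -6.65 (SE 0.76, adjusted p = 5.27e-06 from edgeR), a value that depends on the prior count. In the membranes GJB5 passed the filter on low counts through IVV libraries alone, so this p-value is a description and not separate support. VE3 and VE5 were at 0.288 and 0.918 CPM, above every IVP library.

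No claudin was called in the EEM by edgeR, DESeq2 or limma voom, and 3 of 11 tested had an unadjusted p under 0.05. Of these 11, 9 had estimates above 0. CLDN3, a sealing claudin, came nearest, with 6.54 to 26.6 CPM (median 13.4) in IVP and 4.09 to 22.6 CPM (median 6.94) in IVV membranes (0.90, SE 0.30, adjusted p = 0.11). The groups overlapped, with 2 of the 8 IVV membranes at 22.6 CPM and the other 6 at or under 8.59 CPM. CLDN12 differed by 0.35 (SE 0.22, adjusted p = 0.567). CLDN4 differed by 0.10 with a 95% interval of -0.43 to 0.63. The 3 tested desmosome genes and the 9 plaque, MARVEL and F11R genes held no DEG, with 0 at an unadjusted p under 0.05. Their estimates ran from -0.34 for TJP3 to 0.32 for DSP. DSC1, a desmocollin of skin, was too low for the filter and is named after its values were seen. It had 7 to 18 counts (0.143 to 0.353 CPM, median 0.289) in IVP and 0 to 6 counts (0 to 0.127 CPM, median 0.0622) in IVV membranes. Since it was chosen for these values, they are given with no test.

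**Figure D3:**
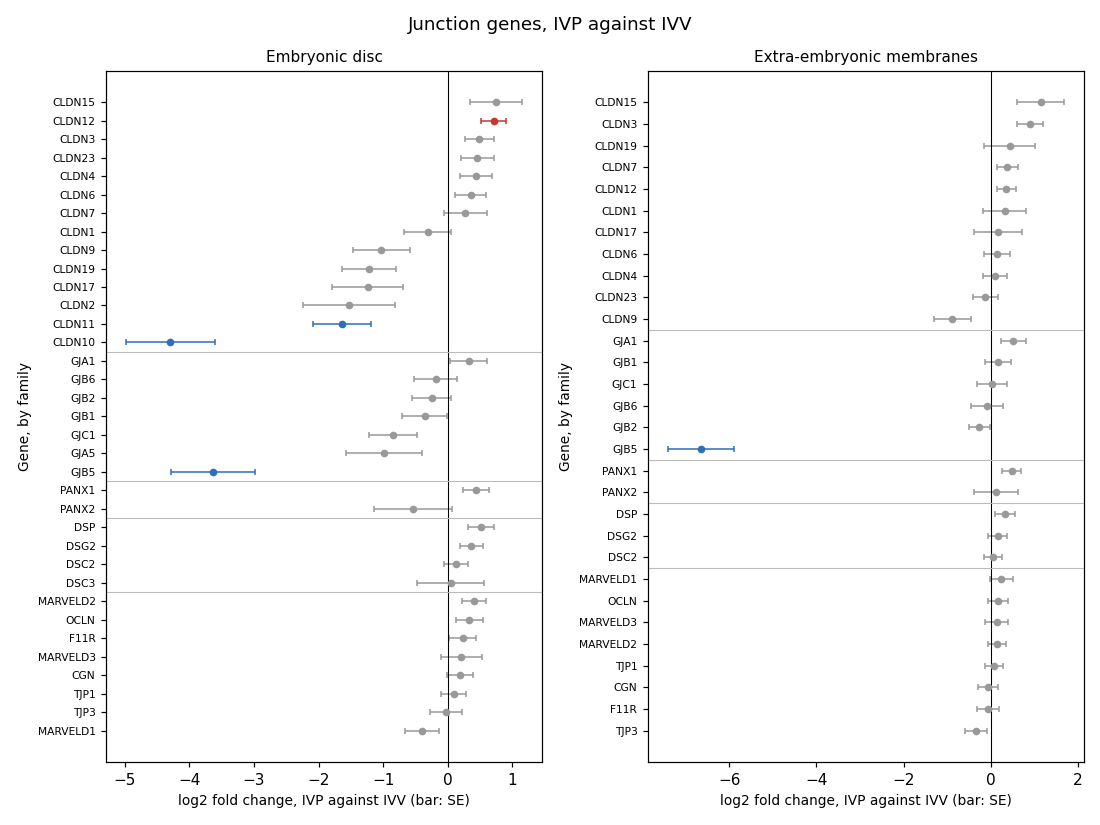
Log2 fold change of IVP against IVV embryos with its SE for each tested junction gene reported here, by family, in the ED (left) and the EEM (right). Red marks genes higher and blue genes lower at an adjusted p under 0.05, and grey the rest. CLDN10, CLDN11 and GJB5 are blue and CLDN12 is red in the ED, and GJB5 alone is coloured in the EEM.

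The second comparison set the ED against the EEM within the 13 embryos that gave both. Of 43 members tested, 12 were higher in the ED and 6 lower. That was 41.9%, against 24.5% of all genes (14.4% higher and 10.1% lower). The median log2 difference (ED minus EEM) was 0.04 over the members and -0.09 over all genes. Claudins and connexins made up 10 of the 12 higher members, and 3 of the 6 lower ones were plaque or MARVEL genes. With the size factors of DESeq2 in place of TMM, the scaling used throughout, 12 members were higher and 2 lower. Cell type markers differed between the same tissues. Beside the epiblast and trophoblast markers given above, 10 of 12 streak and mesoderm markers were higher in the disc (83.3%) and none lower, and 4 of 10 hypoblast markers were higher and 2 lower (60% called). The summed level of the streak list was 46.0 to 231 CPM in discs and 19.6 to 44.5 CPM in membranes, and that of the hypoblast list was 817 to 2968 CPM and 804 to 2942 CPM. The part of these markers in the tissue differences of the members was not tested.

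GJC1 was the connexin with the clearest difference. It was at 1.67 to 5.65 CPM (median 5.07) in IVP and 2.53 to 18.1 CPM (median 5.7) in IVV discs, against 0.481 to 1.57 CPM (median 0.614) and 0.522 to 1.57 CPM (median 0.735) in the membranes. Every disc exceeded every membrane, and the disc was higher in 13 of 13 embryos. The log2 difference was 2.78 (SE 0.26, adjusted p = 2.3e-07 from edgeR with embryo as a block). It was 2.48 (SE 0.41) in IVP and 2.97 (SE 0.33) in IVV embryos.

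GJA1, the most widely expressed connexin of the body, was higher in the disc of 13 of 13 embryos as well. Its range was 22.4 to 118 CPM (median 57.3) in IVP and 29.8 to 79.1 CPM (median 52.5) in IVV discs, and 14.1 to 43.7 CPM (median 21.0) and 6.62 to 26.5 CPM (median 18.4) in the respective membranes. Discs and membranes overlapped across embryos but not within them. The log2 difference was 1.38 (SE 0.20, adjusted p = 3.25e-05). GJB1, a liver and Schwann cell connexin, was also higher in the disc (0.52, SE 0.15, adjusted p = 0.0178, 10 of 13 embryos). Without the embryo block GJB1 was not called (adjusted p = 0.113). GJB5 had no overall tissue difference (-0.50, SE 0.50, adjusted p = 0.488). It was higher in the disc in 1 of 8 IVV and 2 of 5 IVP embryos.

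CLDN10 and CLDN11 were read in discs and at most faintly in membranes. CLDN10 had at most 1 count in each of the 8 IVV membranes, so the IVV discs, with 6.67 ± 3.71 CPM (SD, n = 9), were at least 113-fold higher. Of 6 IVP membranes, 4 had no count and those of IVP10 and IVPF13 had 13 and 12 counts (0.265 and 0.262 CPM), beside 0.26 and 0.249 CPM in the discs of the same embryos. CLDN11 had no count in any IVP membrane and at most 10 counts (0.229 CPM) in IVV membranes, and the disc was higher in 13 of 13 embryos (4.55, SE 0.60, adjusted p = 1.11e-05). Both genes passed the filter on low counts mainly through discs, so this p-value is a description. In IVP embryos the disc, at 0.213 ± 0.122 CPM (SD, n = 7), was at least 3.62-fold above the floor of the membranes.

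Further claudins were higher in the disc at low levels. CLDN2 had at most 4 counts in any membrane and up to 74 in a disc (4.27, SE 0.74, adjusted p = 0.000372, 11 of 13 embryos). It passed the filter on low counts through discs alone, so its p-value is a description. CLDN9, a claudin of the inner ear, was at 0.594 to 2.83 CPM (median 2.26) in IVP and 1.18 to 12.8 CPM (median 2.72) in IVV discs, against 0.158 to 0.862 CPM (median 0.471) and 0.42 to 2.89 CPM (median 0.849) in membranes. The tissues overlapped, and the disc was higher in 11 of 13 embryos (1.79, SE 0.33, adjusted p = 0.000451). CLDN19 (1.64, SE 0.42, adjusted p = 0.0072, 12 of 13) and CLDN1, the claudin of the skin barrier (1.05, SE 0.27, adjusted p = 0.00644, 11 of 13), followed. CLDN1 was not called without the embryo block (adjusted p = 0.112).

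Of the members lower in the disc, all differed by small amounts. MARVELD3, a MARVEL protein of the strand, was at 8.75 to 40.4 CPM (median 18.2) in IVP and 8.13 to 32.8 CPM (median 17.5) in IVV discs, and at 11.9 to 37.9 CPM (median 30.4) and 11.05 to 33.5 CPM (median 22.1) in membranes. The ranges overlapped widely, and the disc was lower in 10 of 13 embryos (-0.54, SE 0.14, adjusted p = 0.00801). DSC2, a desmocollin, was lower in 12 of 13 embryos (-0.26, SE 0.08, adjusted p = 0.0169). MARVELD2 (-0.26, SE 0.09, adjusted p = 0.0353), TJP3, a ZO protein (-0.37, SE 0.13, adjusted p = 0.04), and CLDN7, a claudin of many epithelia (-0.42, SE 0.15, adjusted p = 0.048), completed the group. None of these 5 was called without the embryo block, where the adjusted p ran from 0.173 to 0.425. With the size factors of DESeq2, MARVELD2, TJP3 and CLDN7 lost the call, and with no filter on low counts DSC2, MARVELD2 and TJP3 did. When 1 embryo was left out, CLDN7 was called in 3 of 13 fits (those without IVPF14, VE24 or VE3), with log2 differences of -0.49 to -0.32 over all 13. MARVELD2 was called in 6 of 13 (-0.29 to -0.21), losing the call without IVP10, IVP11, VE19, VE26, VE28, VE29 or VE5. TJP3 was called in 7 of 13 (-0.44 to -0.30), losing it without IVP11, VE19, VE26, VE28, VE29 or VE5. MARVELD3 and DSC2 were called in 13 of 13. CLDN4 (-0.01, 95% interval -0.25 to 0.23), CLDN6 (0.00, interval -0.28 to 0.28), TJP1 (-0.16, interval -0.37 to 0.05) and OCLN (-0.16, interval -0.37 to 0.04) were not called.

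**Figure D4:**
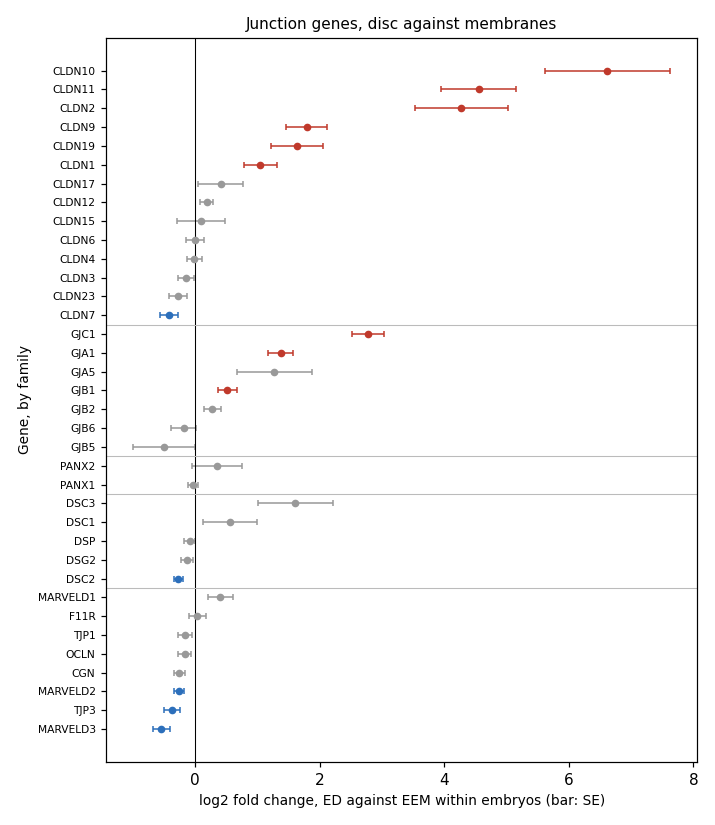
Log2 difference between ED and EEM of the same embryo with its SE for each tested junction gene reported here, by family, over 13 embryos. Red marks genes higher and blue genes lower in the ED at an adjusted p under 0.05, and grey the rest. The red genes are claudins and connexins, and the blue ones lie within 0.54 of 0.

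**Figure D5:**
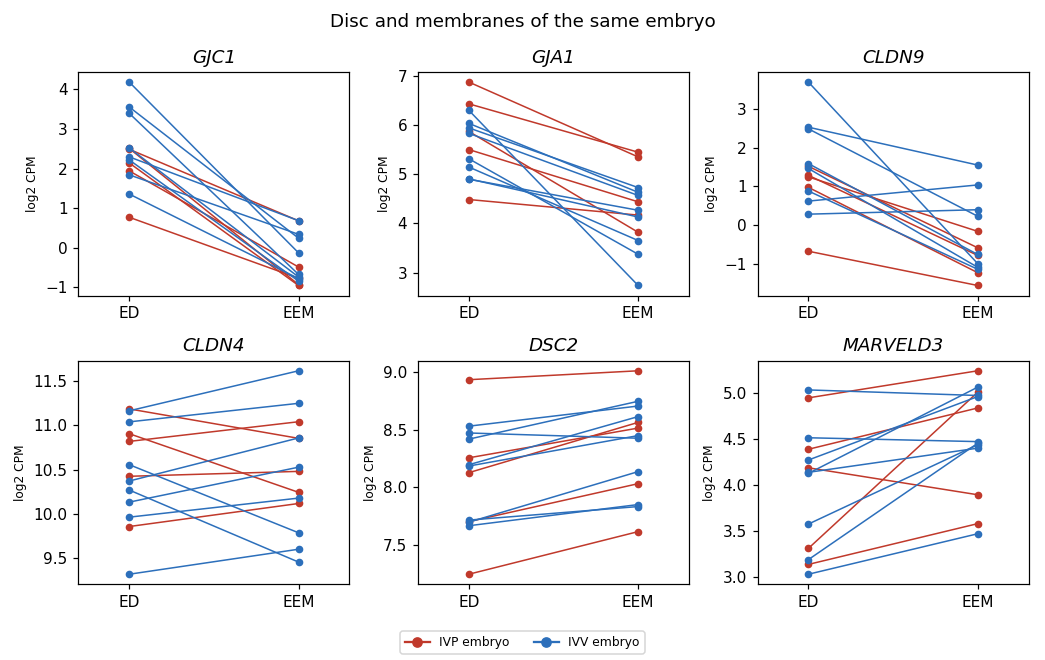
Log2 CPM (prior count 2) of 6 junction genes in the ED and EEM of the 13 embryos that gave both tissues, with a line per embryo, red for IVP and blue for IVV. All lines fall from ED to EEM for GJC1 and GJA1 and 11 of 13 for CLDN9, lines for CLDN4 go both ways, and most rise for DSC2 and MARVELD3.

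Whether the tissue difference depended on the procedure was tested in the same 13 embryos. Of 43 members, 1 was called, CLDN10, or 2.33% against 1.02% of all genes. The disc exceeded the membrane in 8 of 8 IVV embryos and in 2 of 5 IVP embryos. The fitted tissue difference was 10.33 (SE 0.80) in IVV and 1.95 (SE 0.76) in IVP embryos on the log2 scale, a difference of -8.38 (SE 1.35, adjusted p = 0.0035 from edgeR), which depends on the prior count since the IVV membranes were at the floor. CLDN10 passed the filter on low counts mainly through discs. In the same fit 3 of 12 streak and mesoderm markers were called (25%), each with a lower ED minus EEM difference in IVP than in IVV embryos, and 6 of the 12 had an unadjusted p under 0.05. Their median interaction was -2.17 on the log2 scale, against -0.04 over all genes. No epiblast, hypoblast or trophoblast marker was called by edgeR, where 3, 1 and 0 had an unadjusted p under 0.05. The part of these markers in the interaction of CLDN10 was not tested. GJB5 was not called (3.33, SE 1.32, adjusted p = 0.335), nor were GJC1 (-0.49, SE 0.51, adjusted p = 0.876) or GJA1 (-0.36, SE 0.40, adjusted p = 0.885).

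Genes of the same structures outside the member rule were counted for comparison. Of a list of 27 tight junction scaffold and polarity genes, 26 were tested in the disc, with 1 higher in IVP embryos, ESAM, an adhesion molecule of endothelium (1.20, SE 0.36, adjusted p = 0.0444), and 1 lower, ILDR2, of the tricellular junction (-1.84, SE 0.47, adjusted p = 0.0199). That was 7.69%, near the 6.34% of all genes. In the EEM 2 of 24 were higher and none lower (8.33%, against 3.81% of all genes). ESAM was at 2.63 to 9.11 CPM (median 5.66) in IVP and 0.680 to 2.67 CPM (median 1.20) in IVV membranes (2.11, SE 0.34, adjusted p = 0.000356). JAM3, a junctional adhesion molecule, was at 8.83 to 28.2 CPM (median 21.1) and 4.30 to 10.8 CPM (median 7.55), respectively (1.38, SE 0.25, adjusted p = 0.00151). For both genes the lowest IVP level lay under the highest IVV level, so the groups overlapped.

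Adherens junction genes (14 tested) and desmosome plaque genes (8 tested) held no DEG by procedure in either tissue by edgeR. At an unadjusted p under 0.05 there were 1 and 3 adherens genes in the ED and EEM, and 0 and 4 plaque genes. Of 18 regulators of the epithelial state tested, 1 was lower in the disc, SNAI2, which represses cadherin in cells leaving an epithelium (-3.02, SE 0.68, adjusted p = 0.00798), or 5.56% of the list, near the share of all genes. In the EEM, with 11.1% of the list called against 3.81% of all genes, SNAI2 was lower (-2.17, SE 0.58, adjusted p = 0.0333) and TWIST1, a factor of mesenchyme, higher (2.10, SE 0.38, adjusted p = 0.00132). Both also stand in the primitive streak list.

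Between the tissues, 4 of 26 scaffold and polarity genes were higher in the disc and 1 lower (19.2%, under the 24.5% of all genes). The first 3 were AMOTL1, an angiomotin (1.31, SE 0.18), CGNL1, paracingulin (0.75, SE 0.10), and PARD6G, a polarity protein (3.15, SE 0.46). Of 14 adherens genes 4 were higher, among them the cadherins CDH2 (0.85, SE 0.10) and CDH3 (0.98, SE 0.26) and the nectin NECTIN1 (0.80, SE 0.17), and none lower (28.6%, near the share of all genes). Of 8 desmosome plaque genes PKP3, a plakophilin, was lower (-0.40, SE 0.12, adjusted p = 0.0214), or 12.5%. Of the 18 epithelial regulators 2 were higher and 3 lower (27.8%). No gene of these 4 lists was called for the interaction by edgeR, where 7, 2, 2 and 3 genes had an unadjusted p under 0.05.

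Further members were read too rarely for the filter. In the disc these were 7 members, among them CLDN5, CLDN8, DSC1, GJA3, GJA10 and GJB7, and in the EEM 15. CLDN8, a claudin of the distal nephron, had no count in the 7 IVP discs and 0 to 14 counts (0 to 0.215 CPM, median 0.118) in the IVV discs. Only VE29 of the IVV discs was also at 0. CLDN8 passed the count rule for members through IVV libraries and is named after its values were seen, so these counts are a description only.

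The rest of the tested members varied little between groups or varied within them. DSG2, a desmoglein of simple epithelia, had medians of 230, 231, 223 and 201 CPM in ED of IVP, ED of IVV, EEM of IVP and EEM of IVV embryos. F11R, a junctional adhesion molecule, had medians of 104, 86.8, 80.7 and 92.7 CPM in that order. GJB2, a connexin of the inner ear and skin, had medians of 16.8, 17.9, 11.7 and 13.6 CPM, and GJB6, often found with it, 0.786, 1.28, 1.2 and 1.4 CPM. The groups of each of these genes overlapped and none was called in any comparison. PANX2 had 0 and 1 counts in the discs of IVPF13 and IVPF14 and 35 to 163 counts in the other 5 IVP discs. Its range was 0 to 99 counts in IVP membranes, 45 to 151 in IVV discs and 14 to 90 in IVV membranes. CLDN23 (medians 81.3, 61.2, 74.7 and 66.6 CPM) and CLDN6 (1306, 831, 929.6 and 995 CPM) were likewise called in none.

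Of the members not described, 11 had no count in any library, namely CLDN16, CLDN20, CLDN25, CLDN34, DSG1, DSG3, DSG4, DSPP, GJC3, GJE1 and PANX3. Of the other 7, GJA4 reached 10 counts in 2 libraries and CLDN14 and GJD4 in 1, and CLDN18, GJA9, GJD2 and GJD3 in none. Just inside the limit, with 3 such libraries, were CLDN8, GJA3, GJA10 and GJB7. The members that shared only letters were DSCAM and DSCAML1, cell adhesion molecules of neurons, and DSCC1, a factor of sister chromatid cohesion. DSCAML1 was lower in IVP discs (-2.38, SE 0.51, adjusted p = 0.00526), with 1 to 12 counts against 9 to 57, of which VE3 and VE5 had 28 and 57. DSCAM (2.42, SE 0.44) and DSCAML1 (2.46, SE 0.60) were higher and DSCC1 (-0.32, SE 0.10) lower in the disc than in the membranes.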

How the data were processed

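Poly(A) RNA of ED and EEM pieces was sequenced as non-stranded paired reads. Per the labels and the study's methods, the authors filtered reads with SOAPnuke and Trimmomatic, checked them with FastQC 0.11.9, aligned them with STAR 2.7.0b and counted them per gene with featureCounts of Subread 2.0.3, giving the deposited table of raw counts. Symbols were taken from RefSeq for 31630 of 35092 genes, which held 99.5% of counts. Groups came from the tissue and condition labels. The members and the gene lists were chosen with earlier results of these data known.

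Each comparison was fitted over all genes with edgeR 4.0.16 (R 4.3.3) after filterByExpr (minimum 10 counts), TMM normalization, by the quasi-likelihood test. P-values were adjusted by Benjamini and Hochberg over all genes tested, and 0.05 was the limit for a DEG. IVP and IVV were compared within each tissue with 1 surrogate variable (sva 3.50.0), since the morphology and sex of single embryos were not in the labels. ED and EEM, and the interaction, were fitted with embryo as a block. The pairing comes from the embryo name in the titles. Deviations of the 2 tissues of an embryo from their group means correlated at -0.187 (IVPF13) to 0.635. The SE was worked back from the test, as the absolute log2 fold change divided by the square root of its F statistic. Where a group was at the floor, the SE depends on the prior count as the fold change does. Intervals are estimate ± the normal quantile of this SE and can be narrower than the test. For DSG2 in the ED the interval was 0.008 to 0.722, with an unadjusted p = 0.0568 from edgeR. Replicates were separate embryos, and 0 pairs of libraries were identical. Named were the members called, at most 15 per tissue by procedure and 10 per direction between tissues, the most highly read member of each family, GJB5, and at most 3 called genes of each other list. Alternatives were 0 or 2 surrogate variables, the last letter of the title or XIST as a term, only embryos with both tissues, no replicate block, DESeq2 1.42.0, limma 3.58.1 voom, DESeq2 size factors, other filters, halved counts and leaving out each embryo. Values of some members are not reported here, and such members stay in the counts over all members. The code was tested on simulated counts without a surrogate variable or an embryo effect, with changes set only in well-read genes. The interaction and members with few counts were not covered by it.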

Additional observations from a re-analysis of the deposited data

Results flagged for a closer look

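In 76 combinations of a named gene and a group of 4 to 10 embryos, the highest and lowest library was compared with its nearest neighbour by Dixon's ratio, and 7 values stood apart. By chance about 1 in 20 groups would. All 7 were the lowest of their group. CLDN10 in the disc of the IVV embryo VE4 was at 0.194 CPM, with the next IVV disc at 2.06 CPM. In the disc of IVP10, CLDN9 was at 0.594 CPM (next 1.93) and GJC1 at 1.67 CPM (next 3.80). In the disc of IVP11, MARVELD2 was at 32.1 CPM (next 64.3). In the membranes of VE28, CGN was at 125 CPM (next 234) and DSP at 212 CPM (next 387). MARVELD3 was at 11.05 CPM in the membranes of VE26 (next 21.1).

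The tissue difference of CLDN10 differed between the procedures in the test of the interaction, by -8.38 on the log2 scale.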

How the results depend on the processing

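Of the 5 members called in the ED by procedure, 3 remained with 2 surrogate variables, 3 with the title letter as a term and 2 in embryos with both tissues, and leaving out each embryo gave 3 to 7 (3 without IVPF13, VE29 or VE6). CLDN11 and CLDN12 were those lost in each case, with DSCAML1 in the subset. With the level of XIST as a term, CLDN11 (adjusted p = 0.127 from edgeR) and CLDN12 (0.346) also lost the call. CLDN10 in the ED and GJB5 in both tissues were called under every alternative that tested them. GJB5 fell under the filter in the ED with halved counts. In the EEM the 1 called member became 4 without a filter on low counts, where CLDN10 joined as higher in IVP embryos on 2 libraries of 12 and 13 counts, and 3 with 10 counts in 3 libraries. Leaving out an embryo gave 1 to 3 (3 without IVP10, 2 without IVPF14). Between tissues the 18 called members became 11 with no replicate block, all higher in the ED, and 14 to 20 when an embryo was left out. Of the paired interaction, the 1 call became 2 with no replicate block, with DESeq2, with limma voom and with no filter on low counts, DSCAM being added, and 1 to 2 when an embryo was left out (2 without VE24). No direction reversed. Over single named members in every comparison, called or not, 1847 refits kept their side of the threshold, 57 lost the call and 10 gained it. Only a member called in the main fit could lose a call. The 1847 include members that were never called, so they do not measure how well the calls held. At this depth 7 described members in the ED and 15 in the EEM were too low to be tested.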
